A study of Mus musculus with 8 samples.

Results

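The comparison described here sets mouse embryonic stem (ES) cells that had been kept for 11 days with the small molecule IDE2 against undifferentiated ES cells, on 4 of the 8 Illumina BeadChips of the series. Its members were chosen by their labels: 2 arrays of each group. All cells came from a single line, E14TG2a, a feeder-independent mouse ES line. The undifferentiated group (ES) was grown in GMEM medium with serum and LIF-conditioned medium and received no IDE2. The IDE2 group received 1 uM IDE2 for all 11 days in a differentiation medium of Iscove's and Ham's F12 media with N2, B27, a lower percentage of serum, thioglycerol and ascorbic acid. The other 4 arrays, used only where stated, came from cells given IDE2 for 6 days and then a fibroblast growth factor in its place for 5 days, either FGF2 (500 ng/ml, group IDE2+FGF2) or FGF10 (25 ng/ml, group IDE2+FGF10). No culture was kept for 11 days without IDE2, and the groups differed in medium, serum and LIF as well, so effects of IDE2, of time and of medium cannot be told apart. Nothing in the labels tells whether replicate arrays hold RNA of separate cultures. All p-values therefore refer to the spread between these arrays alone, and that spread may be technical.

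ES cells in LIF are held in a self-renewing state by a circuit of transcription factors around Oct4, Sox2 and Nanog, with Klf2, Klf4 and Esrrb as factors of its naive form. When LIF is withdrawn the circuit is shut down and cells pass through an epiblast-like state into the germ layers. IDE2 was found in a screen for inducers of definitive endoderm, the layer that lines gut and lung and is marked by Sox17, Foxa2 and Cxcr4.

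The arrays of the IDE2 group stood apart from each other more than those of ES did. Pearson's r between replicates, taken across the 9915 genes tested as a description since genes are not independent, was 0.99 in ES and 0.958 in IDE2, and 1553 genes (15.7%) differed at least 2-fold between the IDE2 arrays against 176 (1.78%) between the ES arrays. For 74.5% of bright probes the IDE2 arrays differed by more than the error between beads allows, against 22.5% in ES. In a principal component analysis of the 4 arrays, the first component (87.1% of the variance) parted ES from IDE2, and the second (10.2%) parted IDE2 replicate 1 (-35.8) from IDE2 replicate 2 (30.7). Median signals were 117 to 173 and 47.3 to 52.2% of probes were detected on these 4 arrays, and precision is limited by there being only 2 arrays per group. The calls, list counts and medians and the changes of named genes below were therefore also computed without IDE2 replicate 2, in a fit that assumes the remaining IDE2 array to vary like the other groups. The share of genes whose groups do not overlap, the counts by detection and the count of genes with opposing probes were computed with both IDE2 arrays only.

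Between IDE2 and ES, 4496 of 9915 genes (45.3%) changed at an adjusted p under 0.05 by limma with Benjamini-Hochberg adjustment. Of all genes tested 23.1% rose (2294) and 22.2% fell (2202), and 1982 rises and 1906 falls were at least 2-fold. The median log2 change over all genes was -0.01. Because so many genes changed, a list of genes is read here against these shares. The lists were chosen with earlier results of these data known, so such a reading is a description and not a test. Without IDE2 replicate 2, 3868 genes (39.0%) changed, 20.4% up and 18.6% down; 1797 rises and 1665 falls were called in both fits, 497 rises and 537 falls were not called without that array, and no gene was called in opposite directions. In all, 3146 genes were called with all arrays and again without either IDE2 array. The groups did not overlap, that is both IDE2 arrays lay on the same side of both ES arrays, for 72.9% of genes.

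Of the genes tested, 7218 were detected on all 4 arrays, 748 on both IDE2 arrays and neither ES array, and 346 on both ES arrays and neither IDE2 array. These counts are a description only: a gene had to be detected on 2 of all 8 arrays to be tested, and 6 of the 8 are of differentiated cells, which favours the 748. The filter bears on the gene lists below as well. A member undetected in ES entered only through arrays of differentiated cells, and such genes rose or did not pass. Counts and medians of lists with many such members therefore lean towards rises. Where a gene was detected on no array of the lower group, the fold was computed against background in that group and is written "at least". For Tcf15, Krt42, Exoc3l, Inhbb, Napsa, Hspa1a, Dazl, Piwil2, Cdx2, Zfp987, Fgf8, Emp2, Epha7, Dppa3, Fas, Cxcl12, Nog, Yme1l1 and Wdr37 only 1 array of the lower group had detection, so background enters the fold. All folds are of background-corrected signals, and "at least" holds on that scale only. Without background correction, which leaves a constant part in dim signals, 58 of the 63 changed genes named here that have such a bound had a fold below it, by up to 2.86 times, and 57 of the other 146 changed genes named had folds smaller by over 1.5 times, up to 3.11 times for Exoc3l. All levels are normalized log2 signals of a probe, and levels of different genes are not compared. In bulk RNA, a fall through fewer cells of a type and a fall through less RNA per cell cannot be told apart.

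Growth factors of the insulin-like and heparin-binding kind and actins were among the 12 largest rises. Ptn, the heparin-binding growth factor pleiotrophin, was at 5.13 and 5.00 on the ES arrays and at 12.99 and 13.60 on the IDE2 arrays. It was thus below detection in ES and high on both IDE2 arrays, a rise of at least 203-fold (adjusted p = 2.4e-07). Acta2, which encodes smooth muscle actin, went from 7.69 and 7.59 to 15.35 on both IDE2 arrays, where it held the same rank and so received the same quantile-normalized value (209-fold). Its log2 change was 7.71 ± 0.27 (SE, with 2 arrays in each group). Groups that did not overlap were a condition for a gene to be among these 12. Igf2, a fetal growth factor of the insulin family, rose 107-fold, from 9.07 and 9.25 to 15.87 and 15.94. Its signals on the IDE2 arrays before normalization were 58503 and 63913, where the brightest probes of those arrays read 64885 and 69855, so the probe may be saturated and the fold too small. Igfbp5, a binding protein of such factors, lay at 5.20 and 5.54 in ES and at 11.90 and 12.44 in IDE2, a rise of at least 92.6-fold. A related binding protein, Igfbp4, rose 45.8-fold, from 5.83 and 5.71 to 11.20 and 11.37. For these insulin-like factors and binding proteins both IDE2 arrays were far above both ES arrays.

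Nr2f1 (COUP-TFI), an orphan nuclear receptor of the developing nervous system, was undetected in ES at 5.06 and 4.85 and reached 11.19 and 11.35 in IDE2, at least 49.8-fold higher. Acta1, the skeletal muscle actin, was undetected at 4.54 and 4.62 and reached 11.00 and 10.69, at least 37.0-fold higher. Nrep, a protein linked to neuronal regeneration, rose 61.5-fold, from 8.05 and 7.98 to 13.60 and 14.33. In each of these cases the IDE2 arrays lay closer to each other than to any ES array. The remaining large rises were undetected in ES: Kng1 (kininogen, at least 39.0-fold), Pdzrn3 (a ubiquitin ligase, at least 37.7-fold), Serpinf1 (a secreted serpin, at least 34.4-fold) and Tmprss2 (a membrane serine protease, at least 31.4-fold). Adjusted p for the 12 genes was 3.6e-06 or less by limma.

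The 12 largest falls held transcription factors of ES cells and Etv4, a known target of FGF signalling. Tcf15, a basic helix-loop-helix factor, was at 12.23 and 12.15 in ES and at 6.29 and 5.30 in IDE2 (84.2-fold lower, log2 change -6.40 ± 0.34). Etv4, a member of the ETS family and a target of FGF signalling, went from 12.88 and 13.03 to 6.81 and 6.89 (68.9-fold lower). Pou5f1 (Oct4), the central pluripotency factor, went from 15.23 and 14.78 to 10.31 and 9.31 (36.6-fold lower). In all 3 genes the groups were far apart, and in Tcf15 and Pou5f1 IDE2 replicate 2 was the lower of the IDE2 arrays. Utf1, a chromatin-bound factor of ES cells, fell 47.3-fold, from 13.02 and 13.01 to 7.95 and 6.95. Klf2 fell 42.5-fold, from 12.81 and 12.87 to 7.60 and 7.27. Robo4, a guidance receptor known from endothelium, fell 30.7-fold, from 10.68 and 10.86 to 5.68 and 5.98. Both ES arrays were high for each of these and both IDE2 arrays low.

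Septin1, a septin GTPase, fell at least 61.3-fold, Msc (musculin, a helix-loop-helix repressor) at least 27.1-fold and Mapt, the microtubule protein tau, at least 24.5-fold, with no detection in IDE2. Krt42, a type I keratin, fell 43.3-fold, Exoc3l 37.1-fold and Nptx2, a neuronal pentraxin, 35.8-fold. Adjusted p for the 12 falls was 9.7e-06 or less. A call without IDE2 replicate 2 was a condition for choosing these 24 genes, so it is no check of them. So were groups that did not overlap and detection on both arrays of the higher group. Without that array log2 changes were 5.36 to 7.92 for the rises and -6.19 to -4.69 for the falls. Without background correction the same 24 genes were called, with smaller log2 changes of 3.68 to 7.12 and -5.21 to -3.10. When all probes of a gene were averaged, Pdzrn3 had a log2 change of 3.38 in place of 5.61, Kng1 4.17 in place of 5.97, Mapt -3.32 in place of -4.84, Acta2 6.76 and Igfbp4 4.55.

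**Figure D1:**
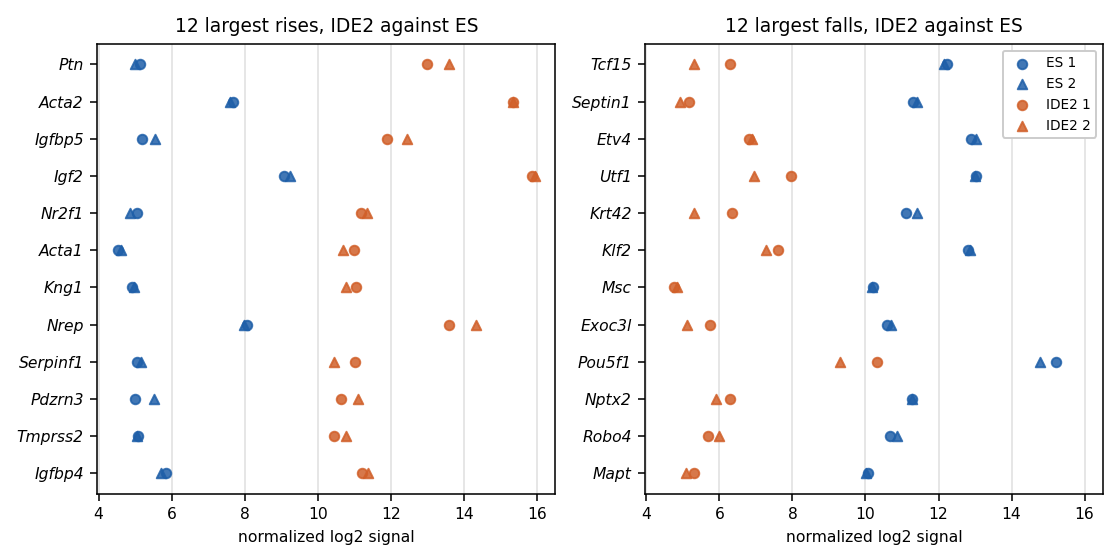
Normalized log2 signal (x axis) of the 12 genes with the largest rises (left) and the 12 with the largest falls (right), with a point for each of the 4 arrays; circles are replicate 1 and triangles replicate 2. Groups that did not overlap were a condition for choosing the genes, so their separation here is no result. Ptn went from 5.13 and 5.00 to 12.99 and 13.60, and Pou5f1 from 15.23 and 14.78 to 10.31 and 9.31.

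The promoters of actin genes that rose and of ES factors that fell are shown because serum response factor is known to act on actin genes through CArG boxes and Sp/Klf factors on GC boxes. Each line below gives the 200 bases before the transcription start, 5′ to 3′ on the gene's strand, from RefSeq (GRCm38.p6). Capitals mark an exact match to a CArG box in the actin genes and GGGCGG, on either strand, in the others.
Acta2, chr19:34255374-34255573, minus strand: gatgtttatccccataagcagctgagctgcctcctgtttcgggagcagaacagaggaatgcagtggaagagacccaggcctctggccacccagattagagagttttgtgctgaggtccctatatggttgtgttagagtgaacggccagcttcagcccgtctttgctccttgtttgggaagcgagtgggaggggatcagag
Acta1, chr8:123894776-123894975, minus strand: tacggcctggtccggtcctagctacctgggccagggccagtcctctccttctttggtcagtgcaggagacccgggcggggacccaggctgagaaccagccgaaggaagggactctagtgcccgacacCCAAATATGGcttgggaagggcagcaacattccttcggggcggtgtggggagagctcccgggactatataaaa
Actc1, chr2:114052876-114053075, minus strand: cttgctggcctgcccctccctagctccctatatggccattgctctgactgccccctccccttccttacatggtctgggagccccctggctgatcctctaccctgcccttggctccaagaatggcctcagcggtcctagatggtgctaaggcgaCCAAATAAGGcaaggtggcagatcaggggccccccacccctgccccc
Pou5f1, chr17:35505832-35506031, plus strand: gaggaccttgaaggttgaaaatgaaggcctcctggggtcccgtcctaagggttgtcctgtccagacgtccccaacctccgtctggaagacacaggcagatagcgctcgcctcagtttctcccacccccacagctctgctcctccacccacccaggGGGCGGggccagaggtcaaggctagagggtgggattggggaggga
Utf1, chr7:139943656-139943855, plus strand: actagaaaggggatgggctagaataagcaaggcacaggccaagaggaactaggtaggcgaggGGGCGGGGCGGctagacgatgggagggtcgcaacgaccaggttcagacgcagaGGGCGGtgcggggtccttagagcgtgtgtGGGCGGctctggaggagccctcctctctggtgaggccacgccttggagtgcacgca
Klf2, chr8:72318862-72319061, plus strand: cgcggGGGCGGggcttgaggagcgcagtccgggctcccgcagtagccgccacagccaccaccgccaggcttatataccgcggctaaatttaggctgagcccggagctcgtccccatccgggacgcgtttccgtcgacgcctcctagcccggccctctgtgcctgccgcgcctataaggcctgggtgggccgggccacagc

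Acta1 and Actc1 each held 1 exact CArG box in these windows, starting 73 and 47 bases before the start, and Acta2 held no exact match. Sequences 1 base away from the pattern were neither marked nor counted. Examples are ccctatatgg and ccttgtttgg in Acta2 and ccctatatgg in Actc1, so a window without capitals may still hold a variant box. Utf1 held 4 matches to GGGCGG, the leftmost pair overlapping, and Pou5f1 and Klf2 held 1 each. A match is a description of the letters and not of a binding site. In the 300-base windows (250 before to 50 after the start) that 8003 of the 9915 genes had, the CArG box occurred on either strand in 1.42% of all genes, in 4.23% of the 189 windows of genes that rose at least 8-fold and in 0.746% of the 134 windows of genes that fell at least 8-fold. It occurred, when IDE2 replicate 2 was left out, in 3.01% of the 166 windows of such rises and in none of the 114 of such falls. With both arrays, TATAAA on the gene's strand occurred in 5.21%, 11.1% and 5.97% of these windows. GGGCGG on either strand occurred in 63.9%, 60.8% and 62.7%, and the octamer ATGCAAAT, on either strand, in 1.46%, 2.65% and 3.73%. CCAAT, on either strand, occurred in 39.5%, 40.7% and 29.9%. The CArG and octamer shares among the large rises and falls rest on very few windows. The median ratio of observed to expected CpG was 0.751 over all windows, 0.661 in the large rises and 0.642 in the large falls.

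Pluripotency factors fell almost as a group, but Sox2 did not pass by its brightest probe. Of 25 tested, 22 fell, 1 rose and 2 did not pass, and the median log2 change was -2.40. After Utf1, Klf2 and Pou5f1 the largest falls were in Klf4 (11.05 and 10.83 to 6.40 and 5.97) and in the orphan nuclear receptor Esrrb (14.07 and 13.95 to 9.73 and 9.42). Nanog, a homeobox factor of the circuit, fell much less, 2.75-fold, from 12.91 and 12.90 to 11.30 and 11.59 (log2 change -1.46 ± 0.27, adjusted p = 0.0016). Sox2, the partner of Oct4 that neural cells also express, was at 8.83 and 8.93 in ES and 8.38 and 8.59 in IDE2. It did not pass by its brightest probe (adjusted p = 0.26 by limma), but with probes averaged its log2 change was -1.14 in place of -0.39. Nanog, Sox2 and Pou5f1 were thus still detected on both IDE2 arrays. Dppa3 (Stella), a maternal and germline factor, rose 2.58-fold, from 5.42 and 5.90 to 7.74 and 6.31; the log2 change was 2.08 without IDE2 replicate 2 and 0.65 without IDE2 replicate 1, where the call was lost. It was lost in 6 of 20 alternatives, with adjusted p from 0.0022 to 0.14. Without IDE2 replicate 2, 21 of the 25 fell and 1 rose.

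**Figure D2:**
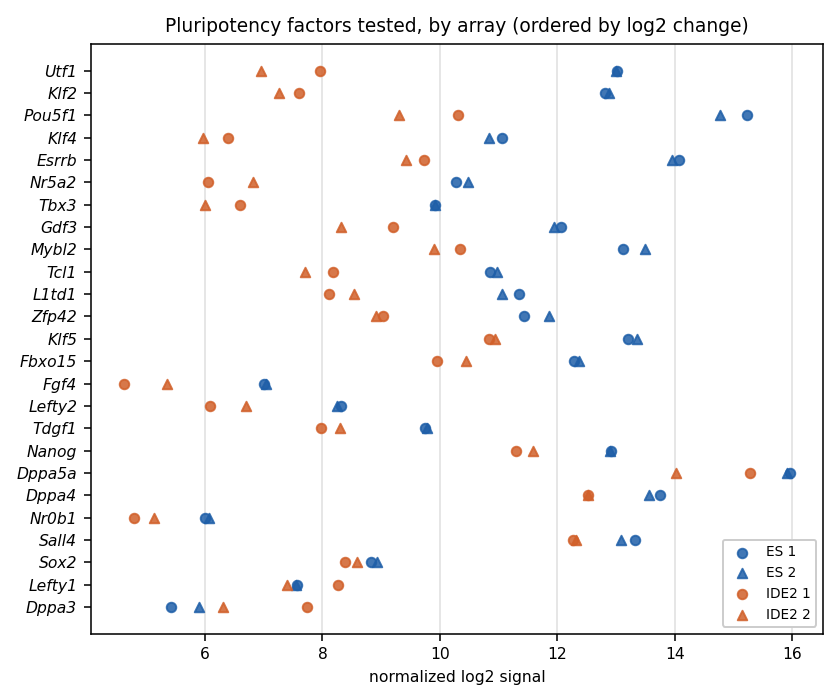
Normalized log2 signal (x axis) on each array of the 25 pluripotency factors tested, ordered by log2 change; circles are replicate 1 and triangles replicate 2. Most factors lie far lower on both IDE2 arrays, while Nanog and the lower part of the panel show small shifts. Sox2, Lefty1 and Dppa3 are the exceptions to the fall, each drawn by its brightest probe.

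FGF feedback genes and targets, which report activity of the FGF and ERK pathway, fell in 6 of 14 and rose in 2 (median -0.63). Beside Etv4, the feedback inhibitor Spry4 fell at least 11.5-fold and Phlda1 8.03-fold. Fos, an immediate early gene, rose 4.32-fold, and Fgf15, a secreted FGF, rose 2.97-fold. Dusp6, a phosphatase of ERK, was at 12.70 and 12.68 in ES and 12.32 and 13.42 in IDE2 and did not pass. The counts were the same without IDE2 replicate 2. Among 13 genes of the primed epiblast and mesendoderm, 4 rose and 4 fell, with and without that array. Fgf5, the classical marker of primed epiblast, was undetected in ES (4.68 and 5.22) and reached 9.35 and 9.99 in IDE2, at least 16.4-fold higher (adjusted p = 6.2e-06; 7.61-fold without background correction). Fgf8 rose 6.34-fold and Gsc, a homeobox gene of the organizer, at least 2.52-fold (1.91-fold without background correction). Nodal, a ligand of the TGF-beta family that patterns the epiblast, fell 7.60-fold, Foxh1, its DNA-binding partner for Smads, 11.0-fold (4.40-fold without background correction), and Cdx1 at least 5.89-fold. When the probes of Cdx1 were averaged its log2 change was -2.36 in place of -3.19.

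Endoderm genes moved both ways, in numbers that did not favour a direction. Of 19 tested genes of definitive and extraembryonic endoderm 7 rose and 7 fell (median 0.26), and 7 and 6 did so without IDE2 replicate 2. Sox17, a definitive endoderm factor that extraembryonic endoderm also expresses, rose 3.70-fold, from 6.43 and 5.92 to 8.03 and 8.09 (adjusted p = 0.00099). Cxcr4, a chemokine receptor of early endoderm and other cells, was undetected in ES and rose at least 2.39-fold, to 6.34 and 7.45. Ttr, a carrier of thyroid hormone made in yolk sac and liver, lay at 5.53 and 4.75 in ES and at 9.28 and 7.39 in IDE2, with a log2 change of 4.15 without IDE2 replicate 2 and 2.25 without IDE2 replicate 1. Thbd, thrombomodulin, rose at least 5.24-fold and the adaptor Dab2 6.43-fold (log2 change 1.81 in place of 2.68 with probes averaged). Trf, transferrin, fell at least 8.64-fold, Hhex, an early foregut homeobox gene, 4.07-fold, and Amn, a receptor subunit of visceral endoderm, 4.37-fold (log2 change -1.48 without IDE2 replicate 2). Foxa2, Foxa1, Gata4, Afp and Alb had too few arrays with detection to be tested.

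Of 13 tested lung genes 6 rose and 6 fell (median -0.16). Cav1, caveolin of flat alveolar cells and of mesenchyme and endothelium, was undetected in ES and rose at least 14.2-fold, to 9.16 and 9.76. Emp2, a tetraspan protein, rose 24.6-fold and Pdpn, podoplanin, 6.04-fold. Without background correction Cav1 and Emp2 rose 7.05-fold and 9.42-fold, and Napsa fell 4.71-fold. Napsa, a surfactant-processing protease, fell 13.3-fold, Foxp1 3.85-fold and the mucin Muc1 2.99-fold. In the fit without IDE2 replicate 2, 6 rose and 4 fell. The defining lung factor Nkx2-1 and the surfactant and club cell genes Sftpb, Sftpc and Scgb1a1 were not detected on enough arrays to be tested.

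Contractile and cytoskeletal genes rose in 19 of 26, fell in 3 and had a median log2 change of 2.03. After Acta2 and Acta1, the cardiac actin Actc1 rose at least 14.4-fold, from 5.01 and 4.62 to 9.84 and 9.12 (log2 change 3.28 in place of 4.67 with probes averaged). Tagln, a calponin-like protein of smooth muscle, was undetected in ES and rose at least 4.88-fold, to 8.10 and 7.75, and Vim, the intermediate filament of mesenchyme, rose 4.42-fold, from 10.38 and 10.16 to 12.20 and 12.63. Actn4, an actinin, fell 3.82-fold (log2 change -1.05 with probes averaged), and the troponin Tnnt1 fell 4.78-fold, with a log2 change of -1.43 without IDE2 replicate 2. Smtn fell 2.86-fold (adjusted p = 0.012), a call lost in 3 of 20 alternatives, among them without IDE2 replicate 2 (adjusted p = 0.072). Without that array 19 rose and 2 fell.

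Matrix genes rose in 27 of 39 and fell in 1 (median 1.96), against 23.1% and 22.2% of all genes, and 26 rose and 1 fell without IDE2 replicate 2. Col5a1, a fibrillar collagen chain, rose 11.9-fold, from 8.30 and 8.10 to 11.87 and 11.66. Bgn (biglycan), a small proteoglycan, was undetected in ES and rose at least 8.61-fold, to 8.54 and 8.94. Thbs1, thrombospondin, lay at 7.63 and 9.36 in IDE2 after no detection in ES (at least 7.28-fold; log2 change 2.77 without IDE2 replicate 2 and 4.50 without IDE2 replicate 1). Col1a1, Col3a1, Col4a1, Col4a2, Lama1, Mmp2 and Timp2 were further members that rose. Nid2, a basement membrane linker, fell 3.25-fold, from 11.80 and 11.74 to 10.01 and 10.13.

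Of 27 growth factors, receptors and binding proteins, 16 rose and 4 fell (median 1.12), and 17 and 2 did so without IDE2 replicate 2. Ptn, Igfbp5 and Igf2, given above, were the largest. Igf1r and Igf2r, the receptors that bind Igf2, also rose, 2.17-fold (adjusted p = 0.011, lost without either ES array, 0.083 at most over 20 alternatives, from 0.0071) and 3.71-fold. Cxcl12, the ligand of Cxcr4, rose 19.4-fold, from 4.92 and 5.69 to 9.80 and 9.37 (6.36-fold without background correction). With probes averaged its log2 change was 3.18 in place of 4.28. Pdgfra, a receptor of mesenchymal and extraembryonic endoderm cells, rose 7.58-fold, while the ligands Pdgfa and Pdgfc fell 2.04-fold and 2.27-fold. Lifr, the receptor for LIF, fell 2.29-fold, from 7.71 and 7.75 to 6.27 and 6.80. These last calls were weak: that of Lifr was lost in 8 of 20 alternatives (adjusted p from 0.013 to 0.16), that of Pdgfa in 3 (0.0072 to 0.12) and that of Pdgfc without ES replicate 1 (0.0038 to 0.074).

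Imprinted genes, which are expressed from 1 parental copy and often control fetal growth, rose in 10 of 15 and fell in 1, with and without IDE2 replicate 2 (median 1.56). Cdkn1c, an inhibitor of the cell cycle, rose 20.9-fold, from 10.78 and 10.68 to 14.73 and 15.50. Dlk1, a transmembrane Notch ligand homologue, rose 19.8-fold, from 6.92 and 6.66 to 11.23 and 10.97, and Peg3, a zinc finger factor, at least 11.0-fold. Both IDE2 arrays were high for each of these. Phlda2, a repressor of placental growth, fell 3.56-fold, with a log2 change of -1.10 without IDE2 replicate 2.

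Retinoid handling genes rose in 8 of 14 and fell in 3 (median 1.24). The share falling (21.4%) was near the 22.2% of all genes. The retinoic acid binding proteins Crabp1 and Crabp2 went from 6.91 and 7.14 to 12.72 and 11.37 and from 6.75 and 6.27 to 11.79 and 10.38, rises of 32.5-fold and 23.9-fold. In both genes IDE2 replicate 1 was the higher, and without replicate 2 the log2 changes were 5.70 and 5.28 in place of 5.02 and 4.58. The receptors moved in opposite directions: Rarb rose at least 8.21-fold, whereas Rarg fell 17.4-fold, from 11.11 and 10.98 to 6.60 and 7.25, Rara at least 3.95-fold and Rxrg at least 2.37-fold. When IDE2 replicate 2 was left out, 7 rose and 3 fell. Of 17 tested Hox, Cdx, Meis and Pbx genes, which set position along the body axis, 8 rose and 2 fell in both fits (median 0.48). The Hox cofactors Meis1, Meis2 and Pbx3 rose 13.2-fold, 8.47-fold and at least 4.55-fold, and Hoxa2 rose 4.11-fold. Hoxb2, Hoxb4, Hoxd8 and Hoxb1 were undetected in ES, and their rises were at least 2.08-fold, 1.4-fold, 1.32-fold and 1.06-fold. The calls of Hoxb1 and Hoxb4 were lost in 15 and 10 of 19 alternatives (adjusted p from 0.026 to 0.29 and from 0.012 to 0.26). Beside Cdx1, Cdx2 fell 1.94-fold, a call lost in 3 of 19 alternatives (adjusted p from 0.0092 to 0.14). A further 19 listed genes, most of them Hox genes, were not detected on enough arrays to be tested. Hoxb1, Hoxb2, Hoxb4, Hoxd8 and Pbx3, undetected in ES, entered only through arrays of differentiated cells, so the count of rises leans on the filter.

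Wnt pathway genes rose in 12 of 27 and fell in 2 (median 0.55), and in 8 and 1 without IDE2 replicate 2. Secreted proteins had the largest rises. Sfrp2 rose 15.1-fold, from 6.57 and 6.02 to 9.99 and 10.44, Dkk3 at least 7.62-fold and Frzb at least 3.33-fold. Tcf7l1, a repressor of Wnt targets in ES cells, fell 3.87-fold (adjusted p = 0.0053) but did not pass without IDE2 replicate 2 (0.060, the highest of 20 alternatives, which began at 3.5e-04). Fzd7, a Wnt receptor of ES cells, fell 1.78-fold, a call lost in 5 of 20 alternatives (0.0053 to 0.14).

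In the TGF-beta and BMP pathway 21 of 36 genes rose and 8 fell (median 1.29), and 19 and 8 did so without IDE2 replicate 2. Among antagonists, Fst (follistatin) rose 11.2-fold (4.51-fold without background correction), Chrd (chordin) 6.31-fold and Nog (noggin) 5.96-fold. Ltbp1, which binds latent TGF-beta, rose at least 5.41-fold and Bmp1, a protease that cleaves chordin and procollagen, 21.4-fold; with probes averaged their log2 changes were 1.37 in place of 3.07 and 1.85 in place of 4.42. With all arrays the share of this list that fell (22.2%) was that of all genes (22.2%), and the ligands fell or rose by gene. Inhbb, an activin subunit, fell 28.3-fold, from 10.38 and 10.16 to 5.70 and 5.20 (9.33-fold without background correction), Tgfb1 at least 7.63-fold, Gdf3 9.53-fold and Bmp4 3.94-fold, whereas Tgfb2 rose 6.23-fold, from 6.76 and 6.37 to 8.95 and 9.46.

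Keratins, junction genes and factors of the epithelial to mesenchymal transition rose in 13 of 25 and fell in 1 (median 0.99), and in 12 and 1 without IDE2 replicate 2. The simple epithelial keratins Krt8 and Krt18 rose 9.54-fold and 13.4-fold, from 10.72 and 10.83 to 13.95 and 14.11 and from 9.12 and 9.01 to 12.91 and 12.70, and Krt7 rose at least 14.1-fold. Markers of both epithelium and mesenchyme were higher: Zeb2 rose at least 6.57-fold and N-cadherin, Cdh2, at least 2.83-fold. E-cadherin, Cdh1, was at 10.11 and 10.05 in ES and 10.86 and 10.92 in IDE2 (1.75-fold higher, adjusted p = 0.039). The call was lost in 9 of 20 alternatives (adjusted p from 0.017 to 0.17), among them without IDE2 replicate 2 (0.079).

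Of 20 tested neural and neural crest genes 13 rose and 4 fell (median 1.19), and 11 and 4 did so without IDE2 replicate 2. The crest genes Ednrb, an endothelin receptor, and Tfap2b, an AP-2 factor, were undetected in ES and rose at least 21.6-fold and 22.7-fold, to 9.75 and 10.39 and to 10.16 and 10.12; with probes averaged the log2 changes were 4.0 in place of 5.34 and 3.54 in place of 4.75. Zic1, a zinc finger factor of dorsal neural tissue, rose at least 12.9-fold. With all arrays the share of this list that fell (20.0%) was near the 22.2% of all genes. Ngfr, the low-affinity neurotrophin receptor, fell at least 17.0-fold, Crmp1 5.05-fold and Stmn3 4.58-fold. Pax6, Sox1, Sox3 and Tubb3, which define neural progenitors and neurons, were not detected on enough arrays to be tested.

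Axon guidance genes, which also act in mesenchyme and vessels, rose in 16 of 27 and fell in 2 (median 1.07), and in 13 and 2 without IDE2 replicate 2. Efna5, an ephrin, went from 7.60 and 7.59 to 12.74 and 12.99 (38.5-fold higher), Plxna2, a semaphorin receptor, was undetected in ES and rose at least 21.3-fold, and the ephrin receptor Epha7 rose 25.6-fold (9.03-fold without background correction). With probes averaged Efna5 had a log2 change of 3.27 in place of 5.27 and Epha7 3.52 in place of 4.68. Epha2, an ephrin receptor of ES cells, fell 10.7-fold, from 10.69 and 10.62 to 7.50 and 6.95. Sema4d fell 2.01-fold, a call lost in 5 of 20 alternatives (adjusted p from 0.015 to 0.16).

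Endothelial genes fell in 6 of 10 and rose in 1 (median -1.18), and in 5 and 1 without IDE2 replicate 2. Esam fell 18.9-fold, from 10.91 and 10.87 to 6.84 and 6.45, Eng at least 8.67-fold, and Pecam1, an adhesion molecule that mouse ES cells also carry, 7.15-fold. Flt1, a receptor for Vegf, was undetected in ES and rose at least 15.0-fold, to 9.58 and 9.49 (6.25-fold without background correction). Cdh5 and Kdr, which define endothelium, were not detected on enough arrays to be tested. Of 5 blood and macrophage genes tested 2 fell in both fits, Laptm5 13.0-fold and Coro1a 3.99-fold (median -0.24), and 11 others, among them Ptprc, Spi1, Gata1 and the globin Hba-a1, were not detected on enough arrays.

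Germline genes rose in 5 of 17 and fell in 7 (median -0.84), and in 5 and 8 without IDE2 replicate 2. Tex19.1 fell 24.3-fold, from 12.87 and 13.02 to 8.34 and 8.35, Dazl, an RNA-binding protein of germ cells, 15.3-fold and Piwil2, which acts with small RNAs against transposons, 13.8-fold; without background correction the falls of Dazl and Piwil2 were 5.42-fold and 4.91-fold. The X-linked homeobox genes Rhox6 and Rhox9 rose 9.76-fold and 8.93-fold, and without IDE2 replicate 2 their log2 changes were 4.01 and 3.99 in place of 3.29 and 3.16. Rec8, a meiotic cohesin, rose 3.37-fold. Rhox6 and Rhox9 belong to a family of close paralogs, so it is uncertain how far their probes part the genes.

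Of 20 genes of DNA methylation and Polycomb 4 rose and 7 fell (median -0.27), and 4 and 9 did so without IDE2 replicate 2. The share rising with all arrays (20.0%) was near the 23.1% of all genes, and 35.0% fell, against 22.2%. Dnmt3l, a cofactor of de novo methylation, fell 15.3-fold, from 14.82 and 15.09 to 11.25 and 10.78. Cbx7 fell 6.10-fold and Jarid2, a partner of Polycomb complex 2, at least 2.86-fold. Phc2 rose 11.4-fold, from 8.38 and 8.48 to 12.01 and 11.86. Bmi1 and Ezh2 rose at least 4.55-fold and 4.83-fold, but both were higher on IDE2 replicate 2 and had log2 changes of 1.75 and 1.60 without it (2.53 and 2.27 with it), and with probes averaged Ezh2 had 1.05. Of 14 oncofetal RNA-binding and chromatin genes 4 rose and 6 fell (median -0.01), and 3 and 4 without IDE2 replicate 2. L1td1 fell 7.36-fold, Rbpms2 5.42-fold and Rbm47 4.21-fold (log2 change -1.31 in place of -2.07 with probes averaged). Igf2bp3, which binds Igf2 mRNA, rose 3.40-fold, Esrp1, a splicing factor of epithelia, 3.05-fold and Mbnl2 2.36-fold, the last lost without either ES array (adjusted p up to 0.063 in 20 alternatives, from 0.0021). Lin28a, at 10.15 and 10.94 in ES and 10.74 and 10.03 in IDE2, did not pass.

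A list of the p53 response, which held p53 targets and the INK4 family inhibitors of cyclin-dependent kinases, rose in 9 of 16 and fell in 3 (median 1.00), and in 8 and 3 without IDE2 replicate 2. Of the p53 targets, the cell cycle inhibitor Cdkn1a rose 3.90-fold, from 9.13 and 8.98 to 11.31 and 10.72. With probes averaged its log2 change was 1.03 in place of 1.96. Plk2 rose 5.31-fold and the death receptor Fas 4.74-fold. Cdkn2b, an INK4 inhibitor known as a target of TGF-beta and not of p53, rose at least 4.37-fold. With all arrays 18.8% of this list fell, near the 22.2% of all genes. Gadd45a fell 4.57-fold, Sesn2 2.29-fold and Ei24 2.10-fold, the last lost without either ES array (adjusted p from 0.0058 to 0.10 over 20 alternatives). Among 26 cell cycle genes 4 rose (15.4%) and 5 fell (19.2%), the latter near the 22.2% of all genes (median 0.20). When IDE2 replicate 2 was left out, 3 rose and 5 fell, and the median was -0.13. Ccne1, cyclin E1, fell 6.51-fold, from 10.75 and 10.31 to 7.77 and 7.89, and Ccnd3 2.74-fold. E2f1 fell 2.41-fold, lost without ES replicate 2 (0.081, the highest of 20 alternatives, from 0.0019). Mcm7 rose 4.05-fold, Plk1 3.25-fold and Rb1 3.35-fold (log2 change 0.97 in place of 1.74 with probes averaged).

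Sterol and fatty acid synthesis genes rose in 11 of 22 and fell in 2 (median 1.06), and in 10 and 1 without IDE2 replicate 2. Scd1, a fatty acid desaturase, rose 8.52-fold, from 8.71 and 8.76 to 11.54 and 12.12, and its relative Scd2 at least 5.14-fold. Nsdhl, an enzyme of cholesterol synthesis, rose 10.6-fold (log2 change 2.60 in place of 3.41 with probes averaged), and Hmgcs1, at the entry of the pathway, 6.76-fold, from 12.68 and 12.79 to 15.21 and 15.77. Elovl6 fell 2.51-fold and Ebp 1.97-fold; the calls were lost in 3 and 7 of 20 alternatives (adjusted p up to 0.072 and 0.18, from 0.0068 and 0.0052). Lysosomal genes rose in 13 of 25 and none fell by limma, with and without IDE2 replicate 2 (median 1.09; 0 fell at an unadjusted p under 0.05); 2 fell when replicate 1 was left out instead. Lamp2, a membrane protein of lysosomes, rose 13.5-fold, from 9.45 and 9.21 to 12.60 and 13.57 (log2 change 3.02 in place of 3.75 with probes averaged), Ctsb, a protease, 6.16-fold and Naglu at least 5.64-fold.

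Of 19 amino acid and one-carbon genes 8 fell and 2 rose (median -0.54), and 8 and 1 did so without IDE2 replicate 2. Srm, spermidine synthase, fell 11.1-fold, from 13.99 and 13.64 to 10.70 and 9.99, Cbs, which makes cystathionine, at least 6.18-fold and the transporter Slc7a7 8.35-fold. Chac1 rose 2.86-fold and Phgdh, which starts serine synthesis, 1.99-fold, the latter lost in 4 of 20 alternatives (adjusted p from 0.0074 to 0.13). Glycolysis and hypoxia genes fell in 7 of 21 and rose in 5 (median -0.16), and in 6 and 2 without IDE2 replicate 2. With all arrays 23.8% of this list rose, near the 23.1% of all genes, and 33.3% fell, against 22.2%. Pfkp, a phosphofructokinase, fell 6.66-fold, from 11.39 and 11.36 to 8.33 and 8.95 (log2 change -2.0 in place of -2.74 with probes averaged). Hk1, a hexokinase, fell 3.05-fold. The lactate transporter Slc16a3 fell 7.04-fold, but the call was lost without either IDE2 array (adjusted p up to 0.085 over 20 alternatives, from 4e-06). Egln3, an oxygen sensor, rose 2.17-fold, whereas the rises of Egln1 (at least 1.30-fold) and of the glucose transporter Slc2a1 (2.02-fold) were each lost in 8 of 20 alternatives (0.021 to 0.17 and 0.0030 to 0.18).

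Among 25 stress genes 5 rose and 8 fell (median -0.17), and 6 and 9 did so without IDE2 replicate 2. With all arrays 20.0% of the stress genes rose, near the 23.1% of all genes, and 32.0% fell, against 22.2%. The antioxidant genes Hmox1 and Srxn1 fell 9.01-fold (3.86-fold without background correction) and 7.84-fold. The chaperone Hspa1a fell 5.45-fold, from 8.29 and 8.08 to 5.20 and 6.27. Atf3 rose at least 4.94-fold and Atf4, a factor of the integrated stress response, 2.78-fold. Cryab, a small heat shock protein, was at 9.49 and 7.62 in IDE2 against 7.02 and 6.86 in ES (3.07-fold higher); its call was lost in 9 of 20 alternatives (adjusted p from 0.0014 to 0.11), and its log2 change was 2.55 without IDE2 replicate 2 and 0.68 without IDE2 replicate 1. Of 17 genes of antigen presentation and interferon response 6 rose and 3 fell (median 0.12), and 7 and 2 without IDE2 replicate 2. With all arrays 35.3% of this list rose and 17.6% fell, against 23.1% and 22.2% of all genes. B2m, the light chain of class I molecules, rose 3.93-fold, from 9.84 and 9.57 to 12.19 and 11.17, H2-T23 5.29-fold (log2 change 1.50 in place of 2.40 with probes averaged) and Tapbp at least 2.53-fold. Ifitm3 fell 5.58-fold (log2 change -1.65 without IDE2 replicate 2), Cd74 at least 3.24-fold and Ifitm2 2.47-fold, the last lost in 7 of 20 alternatives (7.4e-04 to 0.12), with a log2 change of -0.55 without IDE2 replicate 2.

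**Figure D3:**
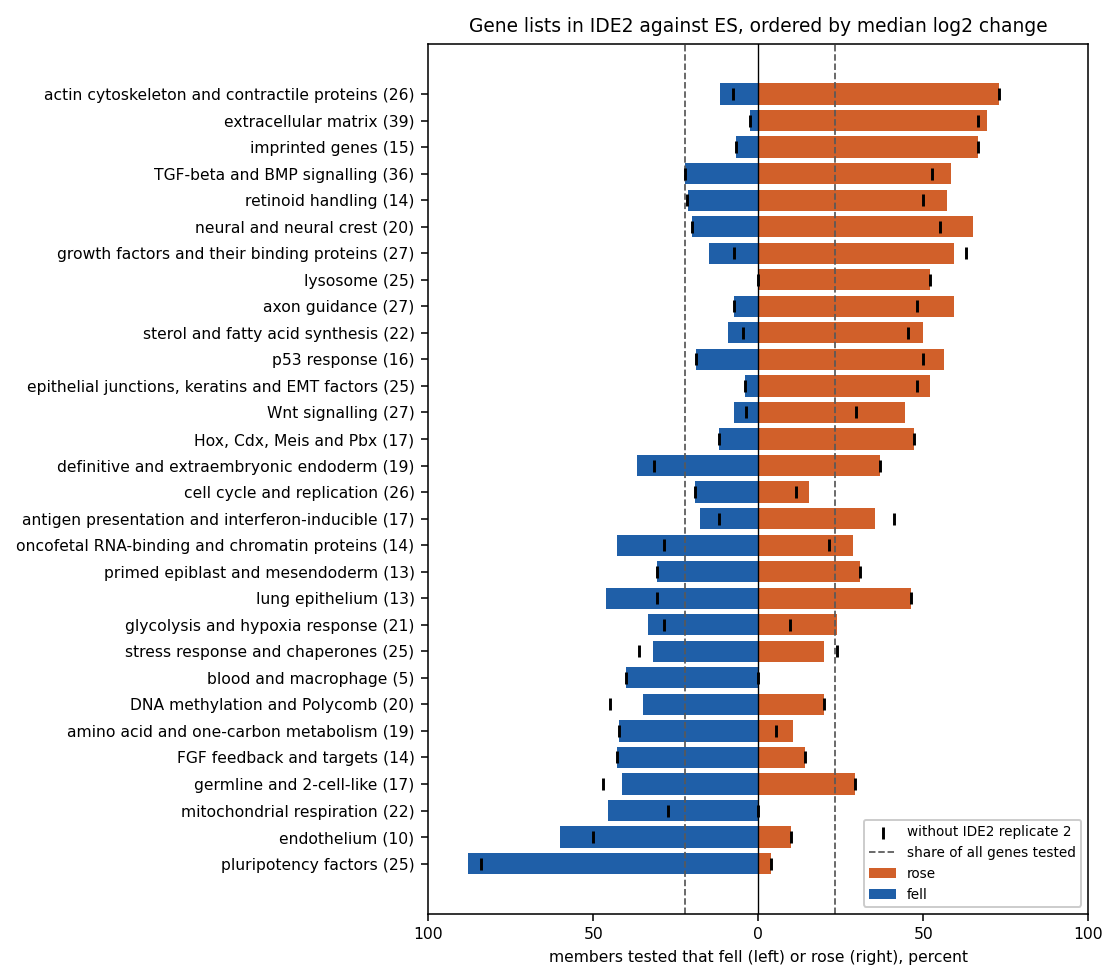
Percent of tested members (number in brackets) that rose, to the right, or fell, to the left, for the 30 gene lists; dashed lines give the shares over all genes tested and black ticks the shares without IDE2 replicate 2. Actin, matrix and imprinted genes rose in far more, and pluripotency factors fell in far more, than the 23.1% and 22.2% of all genes. The lists were chosen with earlier results of these data known, so these shares are a description. The tick for falls in mitochondrial respiration lies far inside its bar.

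Mitochondrial respiration was the list in which the IDE2 arrays disagreed most. None of its 22 tested genes rose by limma, also at an unadjusted p under 0.05 (0 genes), and 10 fell (median -0.87), but without IDE2 replicate 2 the number was 6 (median -0.40) and without IDE2 replicate 1 it was 18 (median -1.68). The median difference between IDE2 replicates 1 and 2 over the list was 1.30 on the log2 scale. Atp5g1, a subunit of ATP synthase, was at 13.65 and 13.94 in ES, at 12.47 on IDE2 replicate 1 and at 10.84 on replicate 2 (log2 change -2.14, and -1.32 without replicate 2). Cox5a, of cytochrome oxidase, was at 14.34 and 14.44 in ES and at 13.03 and 11.77 in IDE2 (-1.99, and -1.36 without replicate 2). Ndufb9, of complex I, was at 9.92 and 10.43 in ES and at 8.89 and 7.42 in IDE2 (-2.02, and -1.29 without replicate 2). In these 3 genes both IDE2 arrays lay below both ES arrays, and replicate 2 lay lowest.

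**Figure D4:**
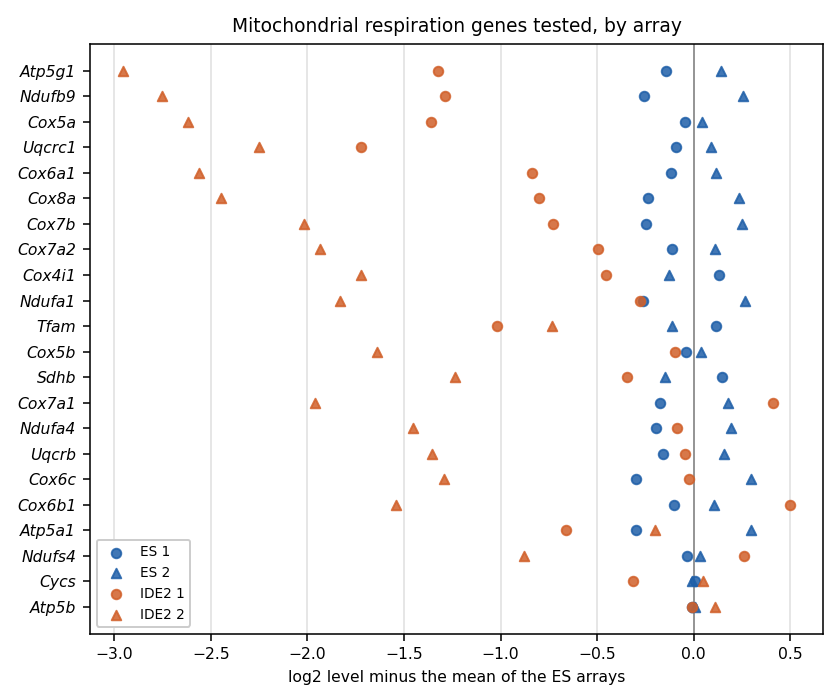
Log2 level on each array minus the mean of the ES arrays (x axis) for the 22 respiration genes tested; circles are replicate 1 and triangles replicate 2. IDE2 replicate 2 lies left of IDE2 replicate 1 for most genes, by a median of 1.30, while the ES arrays lie close to 0.

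The genes that differed most between the IDE2 arrays included other short genes. Higher on replicate 1 were the histones H2ac11 (11.28 against 8.38) and H2ac21 (11.02 against 8.20), the respiratory genes Ndufb7 and Cox7a1, and Med31, Apoc1, Anapc13 and Rnaseh2c. None of these 8 passed against ES (adjusted p of 0.095 or more), and without IDE2 replicate 2 Anapc13 passed (log2 change 1.04, adjusted p = 0.036). Higher on replicate 2 were Zfp987 (5.17 against 7.52), Zfp457 (6.85 against 8.94), Atad2 (6.94 against 9.02), Ppp1cb (10.42 against 12.49), Rsf1, Map4k5, Snx13 and Wdr37. Of these, Ppp1cb, Zfp457 and Atad2 rose and Zfp987 fell with and without replicate 2, with log2 changes of 2.64, 1.75, 1.40 and -3.76 without it against 3.68, 2.79, 2.45 and -2.58. Rsf1, Map4k5 and Wdr37 passed only weakly, with adjusted p of 0.042, 0.025 and 0.048, and not without that array (0.32, 0.22 and 0.38, the highest of their alternatives, which began at 0.0011, 0.0033 and 0.0043).

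Gene length went with the difference between the IDE2 arrays and with the calls. When 9911 genes were parted into 4 bins of equal size by the length of the locus, the median of IDE2 replicate 1 minus replicate 2 was 0.42 in the shortest bin (up to 8.89 kb), 0.10 and -0.16 in the next, and -0.28 in the longest (49.6 kb and more). The same medians between the ES arrays were -0.01 to 0.02. In the shortest bin 14.5% of genes rose and 27.9% fell against ES, and in the longest 32.7% and 14.6%. Without IDE2 replicate 2 the shares were 16.8% and 20.7% in the shortest and 25.7% and 14.4% in the longest, so a smaller gradient of the same direction was present on replicate 1. The part of locus length, RNA quality or cell state in these differences was not tested.

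**Figure D5:**
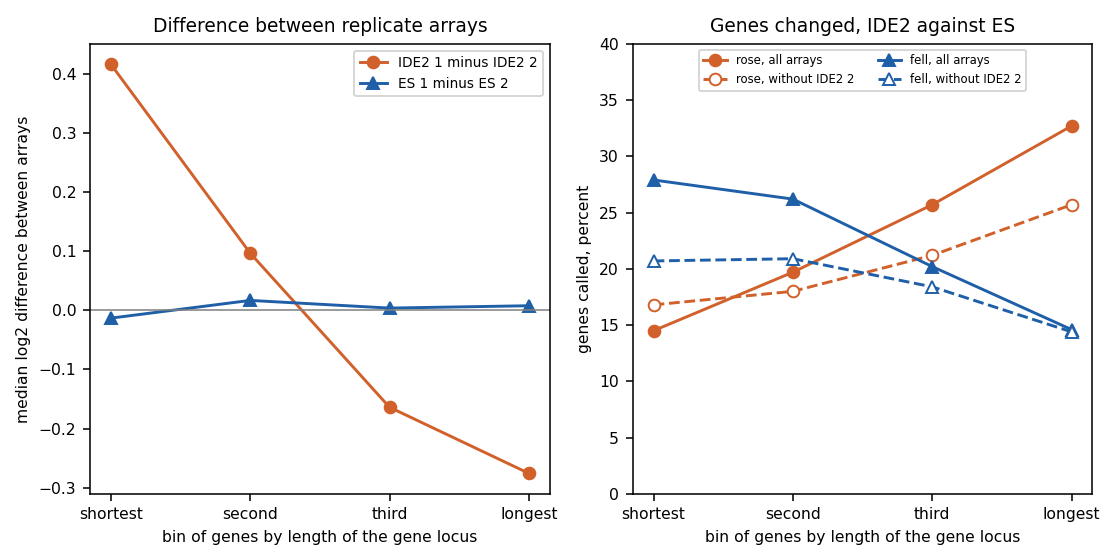
Left, median log2 difference between the replicate arrays of IDE2 and of ES in 4 equal bins of genes by locus length; right, percent of genes that rose or fell between ES and IDE2, with all arrays and without IDE2 replicate 2. The IDE2 difference runs from 0.42 to -0.28 while that of ES stays near 0, and the rising share goes from 14.5% to 32.7% with all arrays and from 16.8% to 25.7% without IDE2 replicate 2.

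The probes of a gene did not always move alike. Of 2643 genes with several probes, 49 had probes called in opposite directions. The changed genes with the widest disagreement were Eif4g2, Yme1l1, Pdzrn3 and Slc11a1: with probes averaged the log2 change of Eif4g2 was 1.32 in place of 3.88 and that of Yme1l1 1.77 in place of 4.14. Both were also higher on IDE2 replicate 2, and had log2 changes of 3.04 and 3.30 without it. Slc11a1, a metal transporter of macrophages, fell 6.06-fold by its brightest probe, from 11.30 and 12.27 to 9.59 and 8.79.

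The cultures switched to an FGF after 6 days were set beside continued IDE2 for the 24 largest changes. Both comparisons below share the IDE2 arrays, and the 24 genes were ranked on values that include them. Against continued IDE2, 7.50% of all genes differed in IDE2+FGF2 and 13.9% in IDE2+FGF10, but without IDE2 replicate 2 these counts went from 744 to 177 and from 1377 to 3. Etv4 was at 10.04 and 11.27 with FGF2 and at 7.31 and 6.76 with FGF10, beside 6.81 and 6.89 with IDE2 (log2 difference from IDE2 3.80 with FGF2, adjusted p = 4.2e-04, and 0.18 with FGF10, 0.79). Pou5f1 was at 11.75 and 12.57 with FGF2 and at 10.29 and 10.13 with FGF10, beside 10.31 and 9.31 (2.35 higher with FGF2, 0.0079). Etv4 and Pou5f1 were thus higher on each FGF2 array than on either IDE2 array. Utf1, Tcf15, Klf2, Nptx2 and Robo4 were also higher with FGF2 than with IDE2, by 1.75 to 3.75 on the log2 scale (adjusted p of 0.019 or less). Without IDE2 replicate 2 the differences of Etv4, Utf1, Tcf15 and Robo4 passed (0.019, 0.0089, 0.023 and 0.0059), and those of Pou5f1, Klf2 and Nptx2 did not (0.077, 0.13 and 0.12).

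Among the rises, Ptn was at 10.41 and 9.78 with FGF2 and at 12.66 and 12.68 with FGF10, beside 12.99 and 13.60 with IDE2 (log2 difference -3.20 with FGF2, adjusted p = 3.8e-04). Igfbp5 and Nr2f1 differed from IDE2 in both FGF groups, by -2.79 and -2.13 with FGF2 (6.6e-04 and 0.0022) and by -1.19 and -1.28 with FGF10 (0.029 and 0.018). Nrep was lower with FGF2 (log2 difference -1.38, adjusted p = 0.025), and Utf1 and Mapt were higher with FGF10, by 1.35 and 1.60 (0.037 and 0.026). Without IDE2 replicate 2, Ptn, Igfbp5 and Nr2f1 passed with FGF2 (0.010, 0.013 and 0.023), Nrep did not (0.092), and none of the 4 FGF10 differences did (0.081 or more). Acta2 was at 15.37 and 15.06 with FGF2 and at 14.98 and 14.86 with FGF10, and Igf2 at 15.82 and 15.91 and at 15.98 and 15.74; neither passed against IDE2 in either group. Igf2 was among the 23 brightest probes on each of these arrays, close to the top of the signal range, so a difference there may not be visible.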

How the data were processed

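Total RNA of E14TG2a cells was measured on 8 arrays, 2 in each of 4 groups. Per the file headers, the deposited intensity is a probe's mean over beads, neither background-subtracted nor normalized; the deposited bead count, the deposited bead standard error (a signal on the same scale) and the detection p-value, deposited by the authors, stand beside it. BeadStudio is named in the submitters' processing notes. A second deposited table of intensities had the same rank order and served as an alternative.

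Signals were normalized with neqc of limma 3.58.1 (normexp from detection p-values, offset 16, quantile, log2). Probes had to reach a detection p below 0.05 on 2 or more arrays, and a gene was represented by its brightest probe: 9915 genes. Of 25697 probes 23978 had 1 gene symbol here and 1719 had none or several. The fit took all 8 arrays, with group means as coefficients (residual degrees of freedom 4, or 3 when an array was left out). p-values are from limma's moderated test, 2-sided, with Benjamini-Hochberg adjustment over all genes; a gene is called changed where that adjusted p is below 0.05. The error given with a log2 change is its standard error. The fit was also run on simulated data in which few genes changed and each gene had the same spread in all groups. In the measured arrays 45.3% of genes changed, and the pooled standard deviation between replicates was 0.50 in IDE2 and 0.25 in ES. The simulated run did not test that setting.

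Members and lists were chosen with earlier results of these data known. The text names the 12 largest rises and falls that were also called without IDE2 replicate 2. These also had groups that did not overlap and detection on both arrays of the higher group, and provisional gene names were left out. Also named are up to 3 rises and 3 falls per list, the 8 genes highest on each IDE2 array over the other, and the 4 changed genes whose probes disagreed most. Values of other list members were chosen after they were seen. The 30 lists held 862 entries (846 distinct genes), of which 776 entries had a probe and 616 were tested. The mesodermal T-box gene T was not analysed here.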

Additional observations from a re-analysis of the deposited data

How the results depend on the processing

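The number of genes changed between IDE2 and ES (4496) was 2811 and 2872 without ES replicates 1 and 2, the lowest values when an array was left out, and at most 4893 (without IDE2 replicate 1). Rises were 1448 to 2444, with 1448 and 1500 without the ES arrays, and falls 1363 to 2449, with 1363 and 1372. Other processing gave 3882 (array weights) to 4488 (intensity trend and robust estimation), and with IDE2 replicate 2 and IDE2+FGF2 replicate 2 left out together 5349. With the replicate block in the fit of 8 arrays 2231 rose and 2176 fell, and of 4 arrays 2126 and 2089. Deviations of same-numbered arrays from their group means correlated at -0.07 to 0.01 after normalization. Such values cannot tell whether arrays of the same number share a culture or a batch. No gene was called in opposite directions in any of these fits. The count of IDE2 array differences of at least 2-fold (1553) was 828 without background correction and with the second table, so it depends on that choice. Genes differing between IDE2+FGF2 and IDE2 (744) were 489 with no detection filter, 73 with array weights, 169 with both arrays left out, and 102 to 2422 with 1 array left out. Those between IDE2+FGF10 and IDE2 (1377) were 898 with array weights and 1 to 3267 with 1 array left out. The cause of these moves was not tested.

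Of the 222 tested genes named (185 by the rule and 37 others), 209 were changed; 27 of these lost their call under at least 1 alternative, and none reversed. The median of 23 of 30 lists kept its sign under every alternative; those of lung epithelium, cell cycle, primed epiblast, germline, DNA methylation, oncofetal and antigen presentation genes changed sign in some. Keeping the sign does not mean a stable size: with the strict detection filter, which tests fewer genes, the median log2 change of the Hox list was 2.26 in place of 0.48, of retinoid genes 2.73 in place of 1.24, of imprinted genes 2.51 in place of 1.56, of axon guidance 2.21 in place of 1.07, of endothelium -2.03 in place of -1.18, of blood genes -2.85 in place of -0.24, of lung genes 1.72 in place of -0.16 and of germline genes 0.11 in place of -0.84. Without background correction, which left smaller folds for dim genes, that of actin genes was 1.23 in place of 2.03, of matrix genes 1.18 in place of 1.96, of imprinted genes 0.93 and of axon guidance 0.42. Further medians moved as much in lung (0.62 with median scaling), antigen presentation (0.70 without IDE2 replicate 2), lysosome (0.48 with probes averaged) and respiration (-1.68 without IDE2 replicate 1). The slide was not in the files, so no slide block was run. Dim genes are the least certain, since the background sets their fold.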

Other observations

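Chromosomes differed in the direction of change between IDE2 and ES. On the X chromosome 32.7% of 343 genes rose and 13.4% fell (median log2 change 0.36); without IDE2 replicate 2 the shares were 28.3% and 9.91% (median 0.28). On chromosome 7, 15.5% of 796 genes rose and 31.3% fell (median -0.34; 15.6%, 25.6% and -0.22 without IDE2 replicate 2), although Igf2, Cdkn1c and Peg3, which lie there, rose. On chromosome 13, 26.8% of 347 genes rose and 11.2% fell (median 0.16; 21.9%, 12.4% and 0.20 without IDE2 replicate 2). Neighbouring genes can share control and gene families cluster, so genes of a chromosome are not independent, and whether locus length differs between these chromosomes was not tested.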
